A study of Homo sapiens with 4 samples.

Results

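m6A peaks whose summit lay in the coding sequence (CDS) of a short internal exon were examined in OE-19 cells. An internal exon is neither the first nor the last of its transcript, and it was called short when it measured under 400 nt. The summit is the position of highest pile-up in a peak, and it had to lie more than 200 nt of spliced transcript from the stop codon. Exons were those of the protein-coding transcript with the longest CDS of each gene (GENCODE version 44, hg38). By this rule 3198 of the 43925 peaks in both lists were members, 2471 of 24607 in replicate 1 and 727 of 19318 in replicate 2. They lay in 1647 genes of replicate 1 and 605 of replicate 2, which is 24.6% of the 6696 and 11.5% of the 5275 genes that had a summit and short internal exon CDS in that list. The study pulled down N6-methyladenosine (m6A) RNA fragments with an anti-m6A antibody (meRIP-seq) in OE-19, an established cell line of adenocarcinoma of the esophagogastric junction grown in RPMI1640 medium with serum. Of its 4 samples, 2 were replicates of the immunoprecipitation (IP) and 2 were input RNA taken without antibody. The IP and input groups share the cell line and culture, and the labels name no other difference between them than the antibody. Peak lists of the 2 IP samples were analysed, and no file of the input samples was used. All values thus come from 1 condition of 1 cell line, and while the study calls its replicates biological, the labels do not say whether they were separate cultures.

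m6A is placed on nascent mRNA by a methyltransferase complex built around METTL3 and METTL14, mostly at the adenosine of motifs of the type DRACH, of which GGAC is a frequent form. Its sites are known to cluster in long internal exons and near stop codons. Most internal coding exons are short, and the exon junction complex, which is deposited upstream of each splice junction, is known to keep the methyltransferase away from nearby sequence. CDS flanked closely by junctions is therefore a part of the mRNA where m6A is known to be sparse.

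Sequences around the summits of 9 strong members found in both lists are shown to compare summits with and without GGAC. They are the strongest 6 with GGAC near both summits and the strongest 3 without, leaving out summits in exons of more than 1 gene. Their proportion is thus set by this choice and not by the data, and CCDC126, which ranks above the last 4 of the first set and lacks GGAC, is not shown. The sequences are given 5′ to 3′ on the gene's strand, from the replicate 1 summit 50 nt to each side as far as the exon reaches, with every GGAC in capitals. Those with GGAC lay in DHX32 (chr10:125859797-125859897, minus strand, exon 3 of 11), WDR27 (chr6:169667982-169668056, minus, exon 5 of 26), ICOSLG (chr21:44231280-44231354, minus, exon 5 of 6), ORC1 (chr1:52393547-52393647, minus, exon 6 of 17), ZNF398 (chr7:149154051-149154151, plus, exon 2 of 6) and GFOD2 (chr16:67685512-67685612, minus, exon 2 of 3).
DHX32: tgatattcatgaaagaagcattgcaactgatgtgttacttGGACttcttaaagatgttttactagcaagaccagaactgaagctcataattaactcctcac
WDR27: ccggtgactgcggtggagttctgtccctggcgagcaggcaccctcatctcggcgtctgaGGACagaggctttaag
ICOSLG: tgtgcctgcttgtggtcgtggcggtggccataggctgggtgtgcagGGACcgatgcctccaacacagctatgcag
ORC1: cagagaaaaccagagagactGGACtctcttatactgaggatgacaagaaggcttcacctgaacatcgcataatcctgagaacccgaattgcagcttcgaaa
ZNF398: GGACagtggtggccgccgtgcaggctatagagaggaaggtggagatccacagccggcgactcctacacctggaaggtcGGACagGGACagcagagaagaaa
GFOD2: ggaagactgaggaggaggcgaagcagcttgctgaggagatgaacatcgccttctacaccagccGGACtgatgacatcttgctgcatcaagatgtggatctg

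The other 3 lacked GGAC within 50 nt of the summit in both replicates. They lay in APC2 (chr19:1461051-1461151, plus, exon 12 of 14), OTULIN (chr5:14690108-14690208, plus, exon 6 of 7) and SRBD1 (chr2:45392945-45392995, minus, exon 20 of 21).
APC2: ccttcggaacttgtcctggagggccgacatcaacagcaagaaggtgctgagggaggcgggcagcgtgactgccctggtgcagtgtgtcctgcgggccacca
OTULIN: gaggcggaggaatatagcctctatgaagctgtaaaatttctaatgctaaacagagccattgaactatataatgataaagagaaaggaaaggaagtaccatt
SRBD1: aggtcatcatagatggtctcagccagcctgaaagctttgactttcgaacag
The SRBD1 stretch ends at the summit because that position is the last base of its exon.

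Next, the number of members was set against the length of sequence that could hold them. Short internal exons took 14.9% of the 16617 summits placed on longest-CDS transcripts in replicate 1 (95% Wilson interval 14.3% to 15.4%), while they made up 25.6% of the length of the same transcripts, each transcript weighted by its number of summits. The ratio of these shares was 0.580 (interval 0.559 to 0.601). In replicate 2 they took 6.65% of 10938 summits (interval 6.20% to 7.13%) and 22.7% of the length, a ratio of 0.292 (interval 0.273 to 0.314). The same ratio was 1.78 in replicate 1 and 2.10 in replicate 2 for internal exons of 400 nt or more. It was 1.86 and 1.39 for CDS in first exons, and 1.45 and 1.66 for CDS in last exons away from the stop codon. Short internal exons were the CDS class with a ratio below 1 in both lists, as the plot of summit shares and length shares shows.

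**Figure D1:**
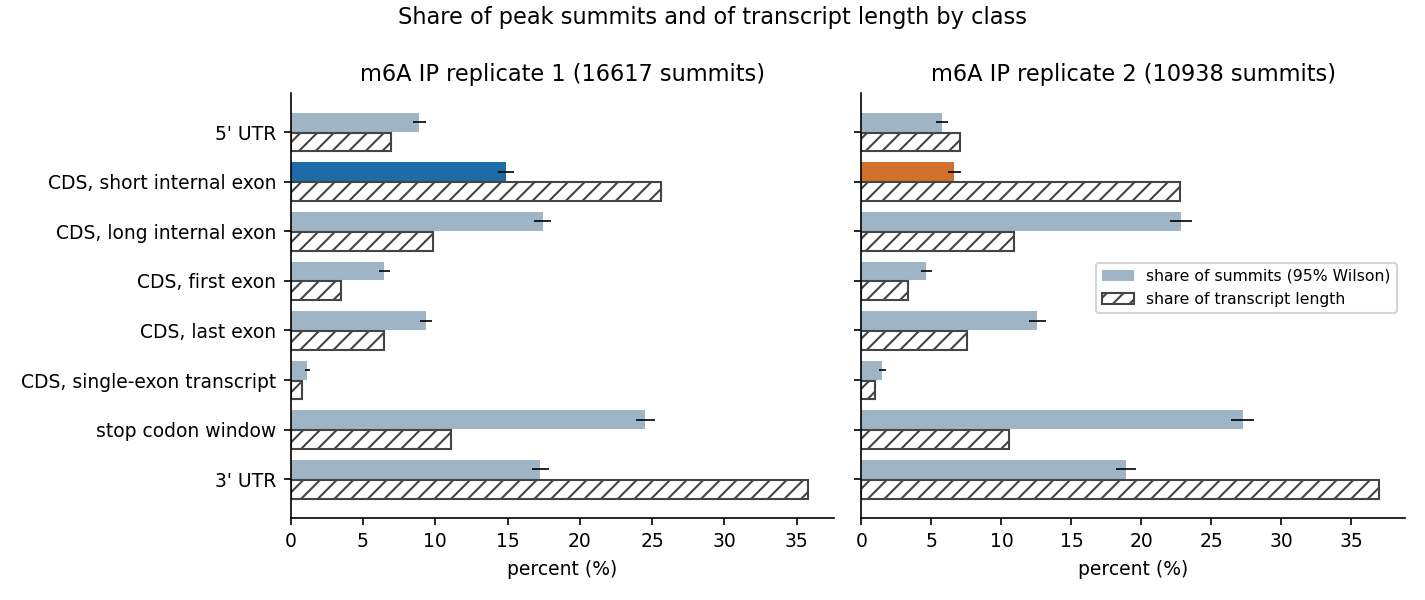
Share of peak summits (filled bars, with 95% Wilson intervals) and share of transcript length (hatched bars) in percent for 8 classes of longest-CDS transcripts, in m6A IP replicate 1 and replicate 2. In short internal exons (coloured bars) the summit share of 14.9% in replicate 1 and 6.65% in replicate 2 lies below the length share of 25.6% and 22.7%.

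The gene was then held fixed, so that short and long exons of the same transcripts were compared. In the 1873 transcripts of replicate 1 that held both short and long internal exons and a summit in either, 1090 summits lay in short exons (0.324 per kb) and 2759 in long exons (1.10 per kb). The density ratio within transcripts was 0.301 (95% exact interval 0.279 to 0.325, exact conditional test, two-sided, −log10 of the adjusted p 223.6). In replicate 2, 338 summits lay in short exons (0.116 per kb) and 2374 in long exons (1.00 per kb) of 1632 transcripts. The ratio was 0.107 (interval 0.0945 to 0.121, −log10 of the adjusted p 416). Members of 1 list are not replicates of a condition, so these and all later tests over peaks cover counting error within a list only.

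Within the short internal exons the number of summits per length rose with exon length in both lists. Exons under 75 nt held 37 summits in replicate 1, 0.142 times the number expected from their length (exact Poisson interval 0.1003 to 0.196), and 6 in replicate 2, 0.0409 times (0.0150 to 0.0891). Exons from 150 to under 200 nt reached 0.587 times in replicate 1 and 0.259 times in replicate 2. Exons from 200 to under 300 nt reached 0.936 times in replicate 1 (0.870 to 1.01) and 0.480 times in replicate 2 (0.420 to 0.548). The longest members, in exons from 300 to under 400 nt, were above the expected number in both lists, at 1.86 times (1.68 to 2.05) and 1.63 times (1.41 to 1.87). The class called short therefore held a range from strong depletion to an excess, with the change of side between 200 and 400 nt. Exons were also counted, only in transcripts that held at least 1 summit of that list. In replicate 1 a summit lay in 0.375% of 9869 such exons under 75 nt and in 33.4% of 1238 from 300 to under 400 nt. In replicate 2 it was 0.0807% of 7433 and 20.3% of 1011. Long exons from 400 to under 600 nt stood next in that order, at 71.3% and 59.2%. The number per length was highest there, at 2.36 and 2.71 times the expected one, and lower again in longer exons, down to 1.17 and 1.33 times from 3000 nt on.

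**Figure D2:**
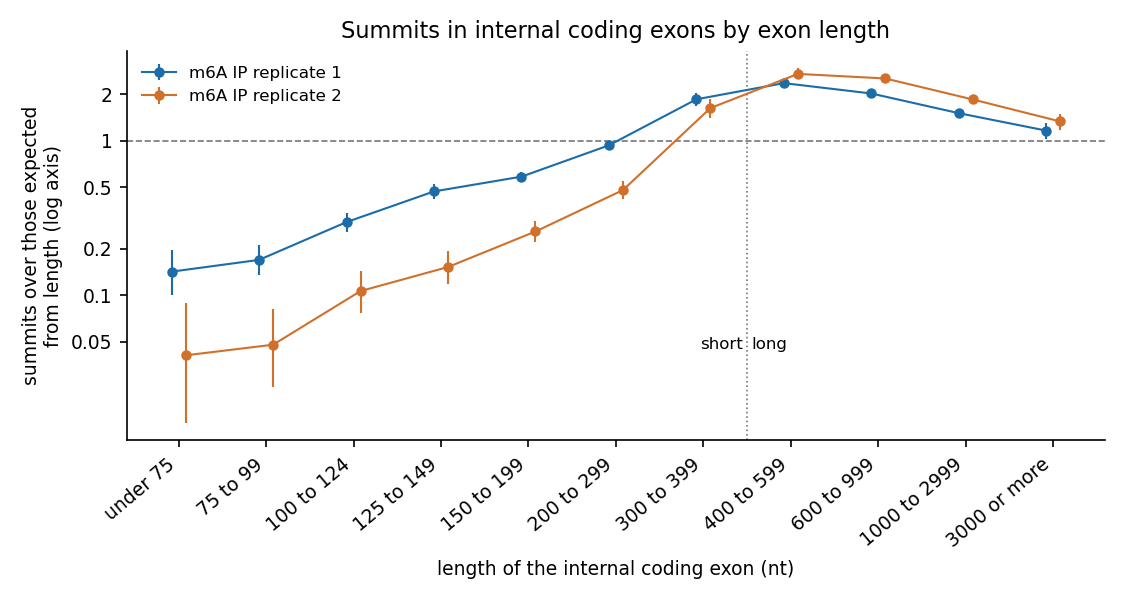
Summits in internal coding exons divided by the number expected from length (log axis), by exon length in nt, for m6A IP replicate 1 (blue) and replicate 2 (orange). Bars are exact 95% Poisson intervals, the dashed line marks a ratio of 1 and the dotted line the 400 nt limit. The ratio climbs from 0.142 and 0.0409 under 75 nt to 1.86 and 1.63 in the last class below the limit, is highest just above the limit and then falls.

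At the 400 nt limit itself, CLCN5 (exon of 399 nt, fold enrichment 5.59 in replicate 1 and 7.63 in replicate 2) and TAPBP (399 nt, 3.05 and 2.78) lay just inside. GPR155 and INF2 (400 nt, fold enrichment 9.57 and 2.01 in replicate 1) and DAG1 and KIFC1 (401 nt, 2.88 and 2.56 in replicate 2) lay just outside. At the stop codon limit, the summits of LHFPL4 and LYNX1 in replicate 1 lay 201 nt from the stop codon and were members (fold enrichment 5.86 and 4.73). Those of MAP2K7 and KIF18B at 200 nt were not (4.35 and 2.92). In replicate 2, STAG3 at 201 nt (6.69) and HLCS at 203 nt (3.39) were inside, with BAZ1B at 200 nt (4.55) and SPON2 at 196 nt (5.33) outside.

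Members were weaker than the other CDS peaks. Fold enrichment is the ratio of the pile-up at the summit to the background of the peak caller. Its median was 3.58 for the members of replicate 1, with quartiles of 2.65 and 5.06 and a range of 1.37 to 22.5. For those of replicate 2 the median was 3.36, the quartiles 2.51 and 4.71 and the range 1.41 to 16.3. In long internal exons the medians were 5.93 and 4.91. A fold enrichment of 5 or more was found for 26.3% of members in replicate 1 (interval 24.6% to 28.1%) and 22.3% in replicate 2 (19.4% to 25.4%). Long internal exons had 64.3% and 48.1%, first exons 45.8% and 33.7%, and last exons 75.2% and 66.5%. Each of these 6 differences passed Fisher's exact test (two-sided, Benjamini-Hochberg adjusted over the 6), with the largest adjusted p of 1.2e-05 against first exons in replicate 2. Peaks in short exons were also narrower, with a median width of 224 bp against 467 bp in long exons in replicate 1 and 242 bp against 433 bp in replicate 2.

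Most members of replicate 1 were not found again in replicate 2. Of the 2471, 720 overlapped a peak of replicate 2 by at least 1 bp, which is 29.1% (interval 27.4% to 31.0%). The share was 80.6% in long internal exons, 44.7% in first exons and 81.7% in last exons, and all 3 differences passed the test (largest adjusted p 1.0e-18, first exons). In the other direction 644 of the 727 members of replicate 2 overlapped a peak of replicate 1, or 88.6% (interval 86.1% to 90.7%), against 96.7%, 95.5% and 97.0% in the other classes (largest adjusted p 1.3e-05). The order in replicate 2 depended on how overlap was counted. With summits within 100 bp in place of any overlap, the share of members (83.1%) lay above that of long internal exons (77.9%), first exons (79.5%) and last exons (73.0%). With lists cut at a fold enrichment of 5 or more it was 62.3%, against 88.7%, 88.9% and 92.1%. In replicate 1 the share of members stayed below the other 3 classes under every rule tried.

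Strength and sharing were also looked at together, in a comparison added after the data had been seen. Among replicate 1 peaks with a fold enrichment under 3, 17.9% of 847 members were shared against 46.5% of 245 long-exon peaks. Among those of 8 or more, 69.0% of 142 members were shared (interval 61.0% to 76.0%) against 97.7% of 829 long-exon peaks (96.4% to 98.5%). In replicate 2 the intervals of members and long-exon peaks overlapped at 8 or more (35 of 36 members shared, 97.2%) and lay apart in the 3 lower bands.

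**Figure D3:**
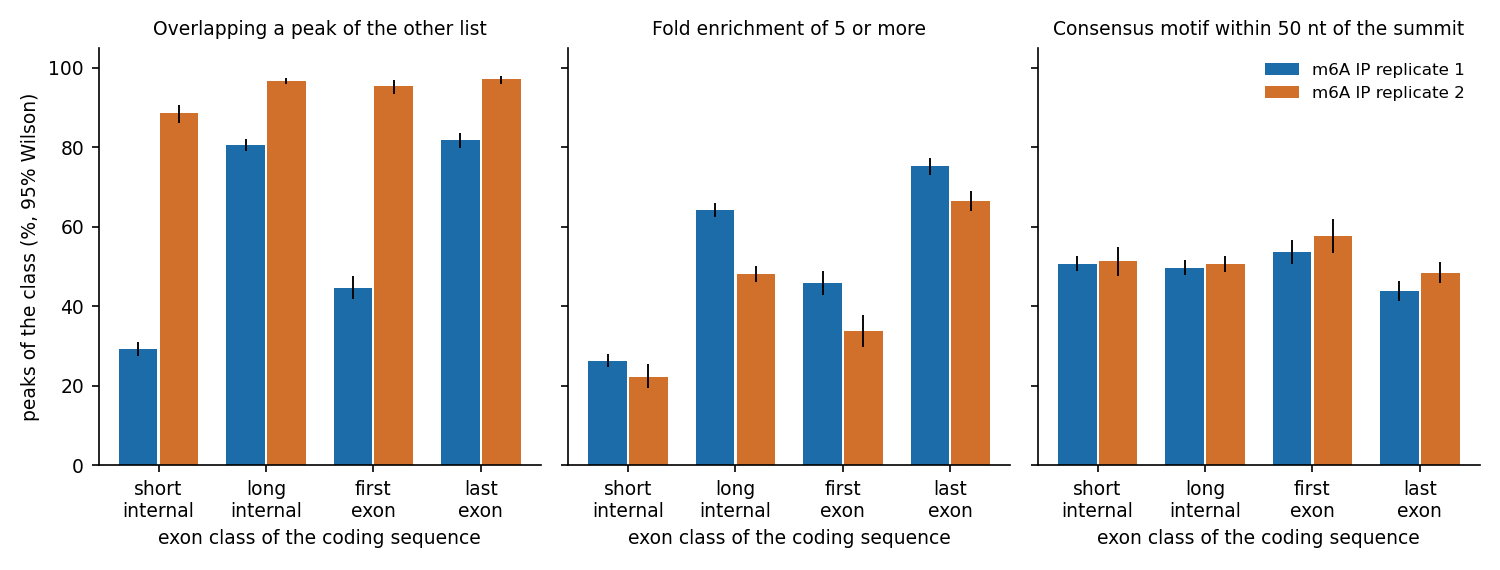
Percent of peaks that overlap a peak of the other list, that have a fold enrichment of 5 or more, and that have GGAC within 50 nt of the summit, for 4 exon classes of the CDS in m6A IP replicate 1 (blue) and replicate 2 (orange). Bars carry 95% Wilson intervals. Short internal exons have the lowest value in the first and second panels, while in the third they lie at 50.7% and 51.3%, close to long internal exons at 49.7% and 50.6%.

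At the level of genes, 532 had a member in both lists, or 10.3% of the 5167 genes with a summit in each. They made up 32.3% of the genes with a member in replicate 1 and 87.9% of those in replicate 2. For comparison, 6696 genes of replicate 1 and 5275 of replicate 2 had a summit and short internal exon CDS, beside the 5167 in both. The overlap of all genes was thus larger than that of genes with a member. Peaks of both lists that were each other's largest overlap, with both summits members of 1 gene, gave 583 pairs in 494 genes. In 575 of them both summits lay in the same exon, and their median distance was 16 nt. The fold enrichment of a pair was higher in replicate 1 in 453 of 583 pairs (77.7%), with medians of 4.37 and 3.21 and a median log2 ratio of 0.40. Across the pairs the log2 fold enrichments had a Pearson r of 0.591 and a Spearman rho of 0.585, as a description, since the peaks of a list share 1 library and 1 background. The 2271 pairs in long internal exons had a Pearson r of 0.671. Both values were 5 or more in 85 pairs (14.6%) in short exons and in 1028 pairs (45.3%) in long exons.

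**Figure D4:**
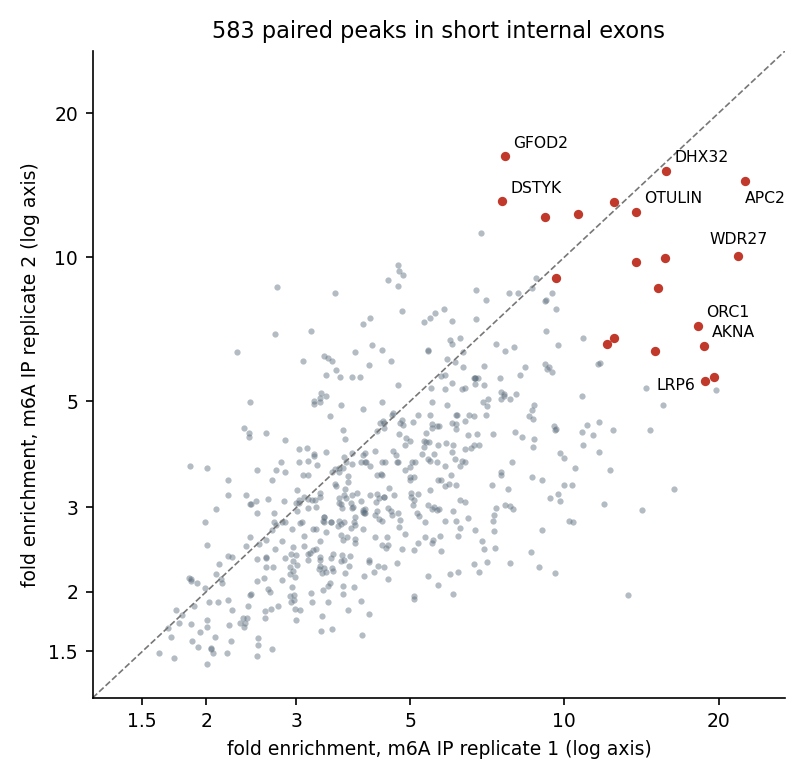
Fold enrichment in m6A IP replicate 2 against replicate 1 (both log axes) for the 583 paired peaks in short internal exons. The 20 genes with the highest geometric mean are red, with some named, and the dashed line marks equal values. Of all pairs, 453 lie below the line.

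With a window of 50 nt around the summit, the share of members with GGAC and that of long internal exon peaks differed by less than counting error. The motif was searched on the gene's strand of the spliced transcript within 50 nt of the summit. In replicate 1, 1254 of 2471 members had it (50.7%, interval 48.8% to 52.7%) against 49.7% in long internal exons, a difference of 1.01 percentage points (interval −1.68 to 3.69, adjusted p 0.572, Fisher's exact test). In replicate 2, 373 of 727 had it (51.3%, interval 47.7% to 54.9%) against 50.6%, a difference of 0.726 points (−3.40 to 4.84, adjusted p 0.736). The call depended on the window: with 100 nt to each side members were higher by 4.26 and 4.22 points, and around peak midpoints by 7.38 and 6.99 points, all past the threshold (adjusted p 9.9e-04, 0.0309, 3.1e-07 and 0.00175), while the sign turned, short of the threshold, under 4 other settings in each list. First exons had 53.7% and 57.7% (adjusted p 0.216 and 0.0830), and last exons 43.9% and 48.4% (adjusted p 1.3e-04 and 0.324). The comparison with long internal exons also differed by strength. Among replicate 1 peaks with a fold enrichment under 3, 52.4% of members had GGAC (interval 49.05% to 55.77%) against 36.7% of long-exon peaks (30.95% to 42.93%). In the higher bands of replicate 1 and in every band of replicate 2 the intervals overlapped. Where members had GGAC, the nearest copy lay a median of 20 nt from the summit in both lists. In 61.1% and 61.9% of these members it lay within 25 nt.

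The members were next set against positions of the same class in the same transcripts that lay outside every peak. These positions had GGAC within 50 nt in 44.95% of cases in replicate 1, against 50.9% of the 2385 members with such positions, a difference of 5.95 points. In replicate 2 it was 43.5% against 51.4% of 693 members, or 7.85 points. Of the other 11 orders of the same 4 letters, which have the same base composition, the mean difference was 2.53 points in the first list and 1.19 in the second. The largest of these was GCAG at 5.80 points in replicate 1 and AGGC at 4.73 in replicate 2. GC content around the summits was 59.5% at members against 56.4% at these positions in replicate 1, and 57.3% against 55.4% in replicate 2. In replicate 1 GGAC thus stood close to GCAG, and the part of base composition in the difference was not tested. Members shared between the lists differed by 9.09 points in replicate 1 (51.3% against 42.3%) and 9.34 in replicate 2 (52.6% against 43.3%), those found in replicate 1 alone by 4.73, and the 81 found in replicate 2 alone by −3.41. GGAC had the largest difference of the 12 orders among shared members in both lists. Among members of replicate 1 alone GCAG (6.10) and AGGC (5.25) lay above it, and among the 81 of replicate 2 alone the largest was GAGC at 16.7. These are descriptions, with no test.

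Since members lie in coding sequence, each GGAC could also be read in frame. The letters GAC formed a codon, which encodes aspartate, in 67.4% of 1727 GGAC copies near members of replicate 1 (interval 65.1% to 69.6%) and 67.0% of 512 in replicate 2 (62.8% to 70.9%). In all GGAC copies of the short internal exons of the same transcripts it was 66.4% and 66.3%. The frame at members was thus that of the exons they lie in.

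Summits of members lay in the middle of the exon and on its 3′ side more often than even placement gives. Members were chosen by where the summit lay, so peaks with a summit in an adjoining intron are missing here. How far this choice, and peak calling on the genome, shape the placement was not tested. The first 50% of the exon held 42.65% of summits in replicate 1 (interval 40.7% to 44.6%) and 41.7% in replicate 2 (38.15% to 45.3%). The summit lay between 25% and 75% of the exon length in 60.9% of members in replicate 1 (interval 58.9% to 62.8%) and 57.6% in replicate 2 (54.0% to 61.2%), where even placement gives 50%. The mean distance to the nearer junction was 65.0 nt and 72.1 nt, against 51.9 nt and 59.0 nt over all positions of the same exons. Members within 25 nt of a junction were nonetheless 27.1% and 28.5% of all, against 28.0% and 24.6% of the positions. The median exon length was 192 nt in replicate 1 and 223 nt in replicate 2, and the median distance to the stop codon 1006 nt and 996 nt. The last 25% of the CDS held 20.1% of members in replicate 1 and 19.4% in replicate 2, with 16.4% and 16.1% of the short-exon length.

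The penultimate exon held 19.3% of members in replicate 1 and 26.96% in replicate 2, with 13.2% and 18.7% of the short internal exon length. The second exon held 18.01% and 17.3% (13.7% and 16.0% of the length). Exons next to an exon of 400 nt or more held 38.7% of members in replicate 1 (interval 36.8% to 40.7%) and 51.2% in replicate 2 (47.5% to 54.8%), with 25.2% and 32.9% of the length. That neighbour could also be the first or last exon, untranslated sequence included, so this group overlaps the second and penultimate exons. Another peak of the same list overlapped an adjacent exon of the transcript, wherever its summit lay, for 65.3% of members in replicate 1 and 62.9% in replicate 2. For long-exon peaks it was 43.4% and 31.8%. The length of the adjacent exons was not matched between members and long-exon peaks, so these shares are not a like comparison. The peak itself reached into an adjacent exon, on either side, in 9.31% and 6.88% of members. A member was the only summit of its transcript in 8.17% of cases in replicate 1 and 11.97% in replicate 2, against 12.3% and 19.4% of long-exon peaks.

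**Figure D5:**
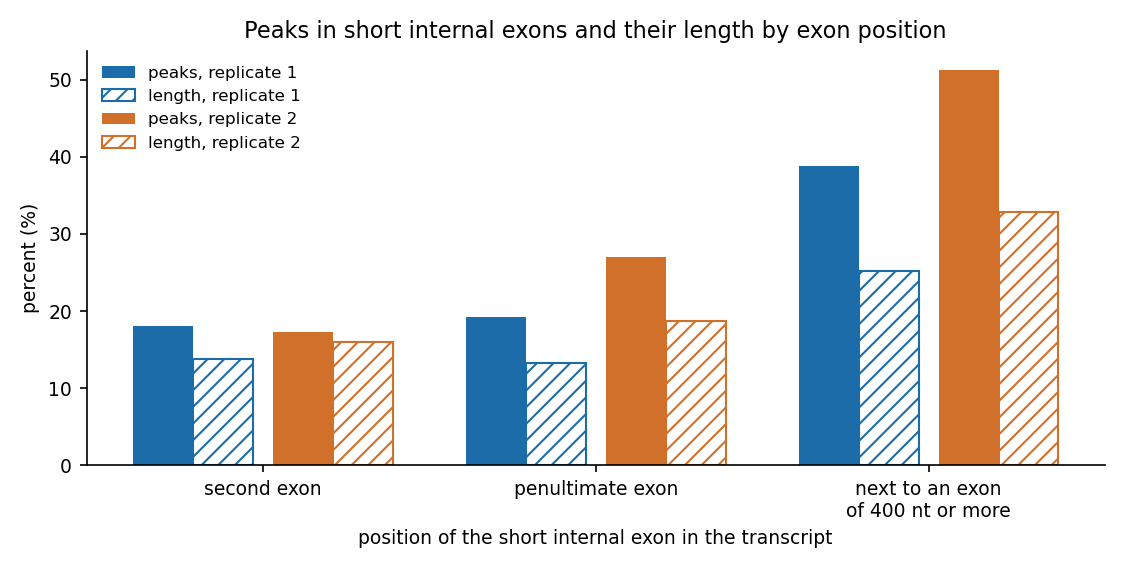
Percent of peaks in short internal exons (filled) and of short internal exon length (hatched) that fall in the second exon, in the penultimate exon and next to an exon of 400 nt or more, for m6A IP replicate 1 (blue) and replicate 2 (orange). The neighbour may be any exon, first and last exons included, so the 3 positions overlap. The largest gap is next to an exon of 400 nt or more, where 38.7% of peaks stand over 25.2% of length in replicate 1 and 51.2% over 32.9% in replicate 2.

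A short exon is often no wider than a peak, so the extent of the peaks was measured as well. The peak was wider than its exon for 1486 members of replicate 1 (60.1%) and 389 of replicate 2 (53.5%). A median of 65.9% and 67.1% of the peak lay in exons of the longest-CDS transcript, against 100% in long internal exons. When exons of every annotated transcript of the gene were taken, 349 members of replicate 1 (14.1%, interval 12.8% to 15.6%) and 115 of replicate 2 (15.8%, 13.4% to 18.6%) still had under 50% of the peak in an exon. In long internal exons it was 6 of 2897 and 2 of 2495. Of the 720 shared members of replicate 1, 585 overlapped a member of replicate 2 in the same gene, and 115 (16.0%) overlapped a peak whose summit lay on no longest-CDS transcript. An exon that is short in one transcript can be long in another. The summit of 645 members in replicate 1 (26.1%, interval 24.4% to 27.9%) and 208 in replicate 2 (28.6%, 25.4% to 32.0%) lay in an exon of 400 nt or more of another transcript of the gene, which also covered 23.5% and 24.9% of the short exon length. Without these members, 27.7% of 1826 were shared in replicate 1 and 87.7% of 519 in replicate 2, and GGAC was found in 50.7% and 52.2%. Which transcripts OE-19 cells use cannot be told from peak lists.

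The 20 genes with the strongest paired member, by the geometric mean of both fold enrichments, were APC2, DHX32, WDR27, OTULIN, SRBD1, CCDC126, CCDC157, ICOSLG, ORC1, ZNF398, GFOD2, AKNA, UBTD2, LRRC27, LRP6, DSTYK, SBF2, FBXO48, EPC1 and SPTBN4. Their fold enrichment ran from 7.55 to 22.5 in replicate 1 and from 5.50 to 16.3 in replicate 2, and 15 of the 20 were higher in replicate 1. Since they were chosen by strength, these values are a description. The exon measured 300 nt or more in 12 of them, it was the second exon in 6 and the penultimate in 8, and 13 had GGAC near the summit in replicate 1 and 12 in replicate 2. The summits of CCDC157 and SBF2 lay in exons of more than 1 gene, and as the lists carry no strand their gene is uncertain.

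APC2, a relative of the tumour suppressor APC in Wnt signalling, had the strongest member, with 22.5 in replicate 1 and 14.5 in replicate 2 in exon 12 of 14, which measures 117 nt. Its peaks were 797 bp and 1017 bp wide, and 24.5% and 19.2% of them lay in annotated exons of the gene. The high value thus came with a peak that lay mostly outside the annotated exons of APC2. In WDR27, which encodes a WD repeat protein, fold enrichment was 21.9 and 10.0 in exon 5 of 26 (204 nt). The peaks of 1329 bp and 1303 bp lay wholly in exons when all WDR27 transcripts were taken, and 15.3% and 15.7% of them lay in exons of the longest-CDS transcript. The summits in WDR27, in ICOSLG, the ligand of the T cell costimulator ICOS (15.3 and 8.64, exon of 165 nt), and in GFOD2 (7.67 and 16.3, 346 nt) lay in an exon of 400 nt or more of another transcript.

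Most of the other strong members lay largely in annotated exons. Exceptions were CCDC157, with 23.4% and 30.6% of the peak in annotated exons, and SBF2, with 25.5% and 32.8%. For SRBD1 it was 57.6% and 46.9%. For DHX32, a DEAH-box helicase, fold enrichment was 15.8 and 15.2 in exon 3, which measures 373 nt, with 81.3% and 100% of the peak in exons. The adenosine of the single GGAC printed above lies 8 nt from the summit. ORC1, the largest subunit of the origin recognition complex that licenses DNA replication, had 18.3 in replicate 1 and 7.20 in replicate 2 in exon 6 (361 nt), and both peaks lay wholly in exons. A second ORC1 member in exon 5 (319 nt) was found in replicate 1 alone, at 6.14. LRP6, a Wnt co-receptor, had 18.9 and 5.50 in exon 2 (394 nt), the widest gap between the replicates among the 20 after LRRC27 (19.6 and 5.61). OTULIN, a deubiquitinase of linear ubiquitin chains, had 13.8 and 12.4 in exon 6 (270 nt), with both summits at the same base. EPC1, a subunit of the NuA4 histone acetyltransferase complex, had 12.5 and 6.76 in its penultimate exon of 364 nt, and SPTBN4, a beta spectrin, 12.1 and 6.60 in exon 26 of 36. In GFOD2, ZNF398, SRBD1, UBTD2 and the dual-specificity kinase gene DSTYK the value was higher in replicate 2, with 13.1 against 7.55 for DSTYK.

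Some genes held many members. TNRC18 had 16 in replicate 1 and 9 in replicate 2, over 3639 nt of short internal exons, with fold enrichments of 1.99 to 5.54 and 1.86 to 3.06. All 9 of replicate 2 and 10 of the 16 were shared. BAHCC1, which like TNRC18 encodes a protein with a chromatin-binding BAH domain, had 10 and 6, with values up to 13.3 and 5.81. PHRF1, which encodes a protein with PHD and RING fingers, had 10 and 2, and PKD1, the gene of polycystin-1, 9 and 2. ZC3H18 tied with PKD1 at 11 in all. Parts of PKD1 exist in near-identical copies on chromosome 16, so reads there may be split or misplaced. Members were spread thinly elsewhere, since 1163 of 1647 genes in replicate 1 and 513 of 605 in replicate 2 had 1.

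The strongest members without any overlap in the other list were in RNF19B (13.6, exon 8 of 9), the deubiquitinase gene USP43 (12.4, exon 12 of 15) and ENTPD4 (12.3, exon 9 of 13) in replicate 1. In replicate 2 they were in the membrane mucin gene MUC4 (9.09, exon 19 of 25), the glycosyltransferase gene MGAT4A (7.98, exon 2 of 15) and NAV2 (7.95, exon 9 of 41). Their −log10 q ran from 18.4 to 25.5 in replicate 1 and from 9.47 to 10.7 in replicate 2. Members at this strength were thus not always found in both lists.

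Members were also counted in 11 gene lists, over the genes that had a summit and short internal exon CDS in the list concerned. The background over all such genes is the 24.6% and 11.5% given above, and no test was made. Gene length and number of exons were not matched for any of the lists. Among the 8 G1-S genes of the study, CDC25A, E2F1, E2F3 and WEE1 had summits in both lists, and none of these summits was a member, while CCNE2, CDC6, CDK4 and CHEK2 had no summit placed on their longest-CDS transcript in either list. Among the m6A regulators 4 of 15 genes had a member in replicate 1 and 1 of 13 in replicate 2. The writer complex gene ZC3H13 had 4.54 and 3.29 in exon 9, the writer gene VIRMA 4.63 and METTL14 4.18 in replicate 1 alone, and the nuclear reader gene YTHDC1 had 2.003 in replicate 1.

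Genes of the exon junction complex and its partners had members in 3 of 13 genes in replicate 1 and 3 of 11 in replicate 2. UPF3B, which links the complex to nonsense-mediated decay, had 3 in replicate 1, with 5.70 in exon 10 of 11, 6.47 in exon 9 and 4.73 in exon 7. In replicate 2 it had 2.97 in exon 10 and 8.72 in exon 7. Its paralogue UPF3A had 2.51 in exon 7 and 5.39 in exon 8 in replicate 1 and 2.92 in exon 7 in replicate 2. PYM1, which takes part in disassembly of the complex, had 2.34 in replicate 2, where the peak overlapped one of replicate 1 whose summit was no member, and UPF1, the helicase of that decay, 1.71 in replicate 1 alone. No core subunit gene (EIF4A3, MAGOH, MAGOHB, RBM8A) had a member, but only EIF4A3 had a summit on its longest-CDS transcript in both lists. MAGOH had a summit in replicate 1 alone, and MAGOHB and RBM8A had no summit in either list. So few summits cannot tell these genes from the background.

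Chromatin remodelling and histone methyltransferase genes, listed together with the acetyltransferase genes CREBBP and EP300, had members in 20 of 29 genes in replicate 1 (69.0%). In replicate 2 it was 6 of 24, against 24.6% and 11.5% of all genes in the 2 lists. CREBBP and EP300 are among the 20. These are long genes with many exons, and length was not matched. SETD1B, which encodes a methyltransferase of histone H3 lysine 4, had 5 members in replicate 1, the strongest at 11.3 in exon 4, and 2 in replicate 2, at 3.03 and 3.11. The remodeller gene CHD8 had up to 6.66 in replicate 1 and 2.67 in replicate 2, and the methyltransferase gene KMT2C 5.64 in replicate 1 alone.

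Among DNA replication genes 4 of 11 had a member in replicate 1 and 2 of 10 in replicate 2. Beside ORC1, the clamp loader gene RFC1 had 4.46 and 3.73 in exon 13 of 25, and the licensing factor gene CDT1 had 2.72 in replicate 1. Motor genes had members in 9 of 20 and 2 of 14, led by MYO6 (7.36, replicate 1), MYO10 (5.49 and 5.32) and KIF20B (5.06, replicate 1). Receptor tyrosine kinase genes had them in 7 of 15 and 1 of 14. The strongest were MST1R (5.06) and EPHB2 (4.33) in replicate 1, and EPHA2 had 3.26 in exon 5 in replicate 1 and 1.96 in exon 6 in replicate 2, peaks that did not overlap.

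Collagen genes had members in 3 of 6 and 1 of 2. COL27A1 had 5.48 and COL9A3 4.16 in replicate 1, and COL18A1 had 4.04 and 2.71 in an exon of 87 nt. Laminin and integrin genes had them in 3 of 11 and 0 of 7, with LAMB1 at 3.39, LAMB2 at 3.21 and LAMA5 at 1.59. Genes of the ABC family had them in 5 of 17 and 0 of 13, led by ABCF1 at 4.63, ABCC10 at 4.02 and ABCF2 at 3.50. The ABCF genes of this list do not encode transporters. Aminoacyl-tRNA synthetase genes, whose products charge tRNAs, had 1 member in 11 genes of replicate 1, in QARS1 at 2.04, and 0 in 5 genes of replicate 2.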

How the data were processed

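Groups were taken from the sample labels. The methods describe fragmented total RNA that was incubated with an antibody against m6A. The labels instead mention UV fixation and lysis of cells. Paired-end reads were mapped to hg38, with Tophat2 in the methods but HISAT2 (after fastp) in the submitters' processing notes, and peaks were called with MACS2, with 1 list per IP sample. Versions, and whether the input served as control, are not given in the sources used here. The authors deposited for each peak its fold enrichment, a ratio over the background of the caller. They also deposited −log10 of the p-value and q-value, a score derived from the q-value that was not used, and the summit offset. No peak had a q above 0.0491 (replicate 1) or 0.0497 (replicate 2). Depth is unknown, since read numbers are not in the lists, and precision rests on how many peaks a class holds.

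Each summit was placed on the longest-CDS protein-coding transcript of its gene (GENCODE version 44). Where exons of several genes overlapped, readthrough genes came last and then the longer CDS was taken. Coordinates are 1-based. All 55 sequence names in the lists were found in hg38. Densities were compared with an exact conditional test with transcripts as strata, and shares with Fisher's exact test, both two-sided, with Benjamini-Hochberg adjustment. A first version of the density test pooled all transcripts and did not return the ratio that simulated summits were made with, so strata were used. With strata, the density ratio and the ratio of summit share to length share recovered what the simulated data were made with. Fisher's exact test was checked against a second implementation and on data made without a difference. No difference in sharing, motif or strength was simulated. Intervals are 95% Wilson or exact intervals and cover counting error only. Alternatives were other q and fold enrichment thresholds, lists of equal length, peak midpoints, Ensembl canonical transcripts, other exon, stop codon, motif and overlap limits, and each replicate left out. Members and gene lists were chosen with earlier results of these data known. Genes were named by rule: the 20 strongest pairs, the 5 genes with most members, the 3 strongest found in each replicate alone, the strongest 3 of each gene list with all G1-S genes, and those nearest the limits. Of the genes with most members, 1 is not reported here. The tools were scipy 1.17.1, pysam 0.24.0, pandas 2.3.3, numpy 2.4.6 and matplotlib 3.10.9 under Python 3.11.15.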

Additional observations from a re-analysis of the deposited data

Results flagged for a closer look

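Summits in a short internal coding exon of other coding transcripts of the gene only, outside every longest-CDS transcript, were not part of the comparisons. There were 11 in replicate 1 and 4 in replicate 2, above the limit of 3 that a count of 0 allows. Their median fold enrichment was 3.94 in replicate 1 and 3.65 in replicate 2, and 2 of the 11 and 4 of the 4 overlapped a peak of the other list.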

How the results depend on the processing

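No paired analysis was possible because the input samples, which share replicate numbers with the IP samples, have no file here. The density ratio within transcripts stayed below 1 and past the threshold under every alternative run, from 0.124 to 0.305 in replicate 1 and from 0.0435 to 0.110 in replicate 2 (0.295 and 0.115 when pooled over transcripts, added after seeing the data). The ratio of summit share to length share stayed below 1. In replicate 1 it was 0.547 at q of 0.01 or less, 0.443 at 1e-05, 0.323 at a fold enrichment of 5 or more, 0.461 with lists of equal length, 0.407 and 0.510 with short exons under 200 and 300 nt, and 0.550 beyond 400 nt from the stop codon. In replicate 2 it was 0.269, 0.209, 0.158, unmoved, 0.157, 0.221 and 0.270 in that order.

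Sharing in replicate 1 kept its direction and side of the threshold under all 13 alternatives. In replicate 2 the difference from long internal, first and last exons was −2.28, −3.39 and −1.34 percentage points when 50% of both peaks had to overlap (adjusted p 0.230, 0.230 and 0.502), and 5.21, 3.55 and 10.1 points with summits within 100 bp. It widened to −26.4, −26.5 and −29.8 when both lists were limited to a fold enrichment of at least 5, and to −15.1, −11.5 and −15.4 with lists of equal length. The cause of these shifts was not tested. The share with a fold enrichment of 5 or more kept its side, apart from −6.31 points against first exons in replicate 2 at q of 1e-05 or less (adjusted p 0.0653).

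GGAC calls changed under several settings. The difference from long internal exons, within counting error as reported, was −1.53, −3.70, −1.06 and −2.16 points in replicate 1 at q of 1e-05 or less, fold enrichment of 5 or more, equal lists and a genomic window. It was 7.38 with midpoints and 4.26 with 100 nt to each side, both past the threshold. In replicate 2 it was −0.000375 at q of 0.01 or less, −3.60 and −2.11 with short exons under 200 and 300 nt, −0.432 on the genome, 6.99 with midpoints and 4.22 with 100 nt. Against first exons it passed the threshold at −3.30 (100 nt) and −5.74 (genome) in replicate 1, and at −7.41 (canonical transcripts), −10.7 and −9.21 (200 and 300 nt), −5.69 (100 nt) and −7.41 (genome) in replicate 2. Against last exons it fell short in replicate 1 at 4.92 (q of 1e-05 or less), 4.01 (fold enrichment), 3.06 (25 nt) and 3.65 (genome). In replicate 2 it was 12.1 (midpoints) and 8.13 (100 nt), past the threshold, and −1.46 under 200 nt.

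Genes with a member in either list numbered 1720, 629 at a fold enrichment of 5 or more, and between 605 and 1647 with 1 replicate left out, 605 being the number without replicate 1. Without members in a long exon of another transcript, an alternative added after seeing the data, sharing, GGAC and strength kept their calls.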
